A study of Gallus gallus with 2 samples.

Results

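Mesoderm-6 is a class of mesoderm cells that the authors named in chicken embryos at Hamburger-Hamilton stage HH5. Its members were taken by the deposited class name, and there were 268 of them among the 7750 cells of the table. They made up 3.46% of all cells (exact 95% binomial interval 3.06 to 3.89%) and 9.13% of the 2936 cells in the 6 mesoderm classes. The cells came from whole embryos, and the labels name no treatment, allele or contrasting stage. Embryos were dissociated with enzymes and profiled with the 10x Multiome assay, in which each cell yields both an RNA profile and a profile of open chromatin (ATAC). This gave 1 RNA library and 1 ATAC library. How many embryos were pooled is not given in the sources used here.

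At gastrulation, cells of the surface layer move through the primitive streak, a midline furrow, and spread from it as mesoderm. Where and when a cell leaves the streak is known to bear on the kind of mesoderm it forms, from the axial and paraxial tissues to the lateral plate and the extraembryonic mesoderm. Accessible chromatin marks stretches of DNA that are open to regulatory proteins, and its profile differs between cell types and between positions in the embryo. Both libraries carry the label antero-posterior axis, and the title of the series concerns gradients of accessibility. The questions addressed here were where mesoderm-6 cells lay on the ATAC rank, how the rank varied inside the class, and how it ran on across the borders with the primitive streak, mesoderm-2 and mesoderm-5.

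For each cell the table gives a pair of coordinates. An ATAC rank is given for 6681 of the 7750 cells, which belong to 13 of the 16 classes. The other classes are not on the scale of the rank. The coordinates belong to a weighted nearest neighbour UMAP, a plane on which cells with similar combined RNA and ATAC profiles lie close together. The rank orders 6681 cells with the whole numbers from 1 to 6681. The sources used here do not give the quantity behind the rank or its anterior end, and ranks are called low or high only. Distances on the plane are not distances in the embryo. The plane was made in part from the ATAC profiles of these cells, and so was the rank, judging by its name. The class column holds cluster names and may draw on these profiles too. Agreement between these measures is therefore not independent. Cells of 1 preparation are not replicates, so every value is a description and no test was made. Neither gene values nor depth were analysed here for single cells, and the class could not be compared with marker genes and keeps the authors' name.

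In the embedding, mesoderm-6 formed a narrow band in an open space to the right of the primitive streak and below mesoderm-2 and mesoderm-5. Its first coordinate ran from -1.45 to 0.71 (median -0.51) and its second from -0.75 to 1.82 (median 0.44). The band ran from lower left to upper right, at 52.2 degrees to the first coordinate. Cells were spread 2.13 times as widely along this long axis (SD 0.638) as across it (SD 0.299). Both coordinates therefore rose together within the class, with Spearman's rho = 0.62 across the 268 cells.

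**Figure D1:**
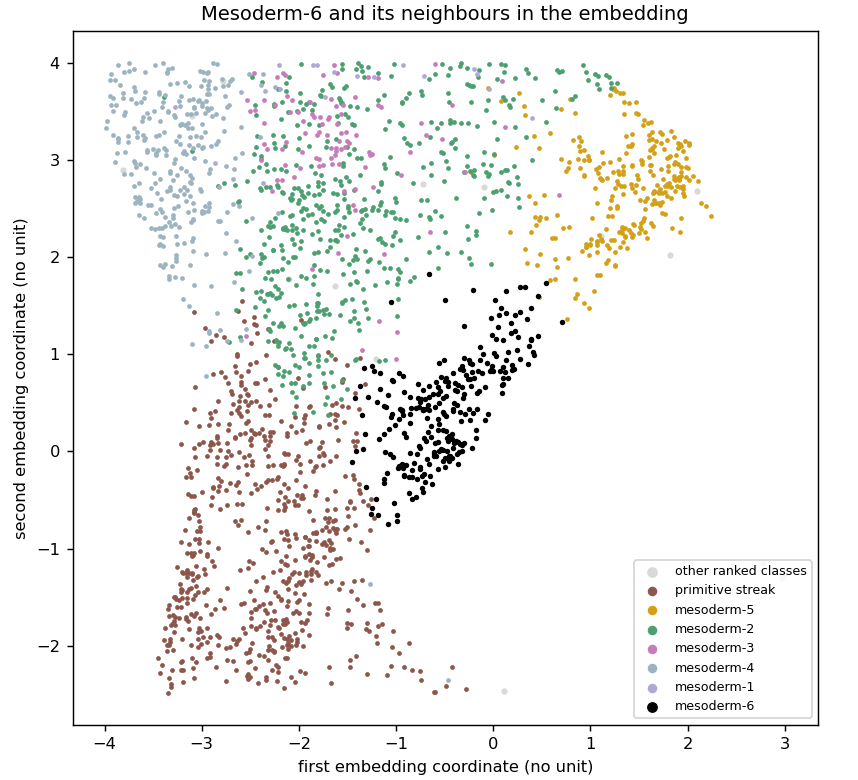
The area around mesoderm-6 in the embedding, with 1 point per cell, colours for the authors' classes and both coordinates without a unit. Mesoderm-6 (black, 268 cells) reaches the primitive streak at its lower left and along its upper left edge. It reaches mesoderm-2 at its upper left and mesoderm-5 at its upper right.

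Mesoderm-6 was compact. Of the 15 nearest cells of a member, 93.0% on average were mesoderm-6 cells themselves, the highest such share among the 6 mesoderm classes (mesoderm-5 followed with 92.5%). All 15 were mesoderm-6 cells for 225 members, 84.0% of the class. Because classes may be clusters of the same profiles, this compactness may be built in. The other 43 members each had at least 1 cell of the streak, mesoderm-2 or mesoderm-5 among their 15 nearest. Of the nearest cells that carried another class name, 54.4% were primitive streak cells, 26.7% mesoderm-2 cells and 12.8% mesoderm-5 cells. The rest came from 4 mesoderm-3 cells and 1 nonneural ectoderm-1 cell.

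All 268 members had a rank, and their ranks lay in the upper part of the scale. The lowest was 2587, the median 4653.5 (order-statistic 95% interval 4508 to 4767, which covers the counting of cells only) and the highest 6667. The mean was 4720 with an SD of 868. Only 6 members, 2.24%, lay below the middle rank of 3341 (exact binomial interval 0.826 to 4.81%). The ranks had 1 broad peak. In steps of 500, 50 cells lay from 3500, 53 from 4000 and 56 from 4500, followed by 38, 31 and 22 in the next steps up to 6500, and 5 above.

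Divided into 10 bins of 668 or 669 ranks, the scale held most members in bins 6 to 8. Bin 6 held 57 members, bin 7 held 74 and bin 8 held 69, together 74.6% of the class (69.0 to 79.7%). Bins 9 and 10 held 35 and 27. Mesoderm-6 supplied 11.1% of the cells of bin 7 and 10.3% of bin 8, against 4.01% of all ranked cells. No member was in bins 1 to 3, which allows a share of up to 1.12% by 3 counts of the total, or 1.37% by the exact binomial interval. The class thus began close to the middle of the scale and thinned out toward its high end.

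The level of mesoderm-6 was that of the primitive streak, but its ranks were less spread. A mesoderm-6 cell ranked above a streak cell in 50.1% of all pairs of cells, where 50% means no difference in level. The 10th and 90th percentiles were 3679.7 and 5991.6 in mesoderm-6, and 3373.9 and 6303.4 in the streak. The quartile range spanned 1216 ranks in mesoderm-6 (4055.75 to 5271.5), 1975 in the streak (3773.5 to 5748.75) and 1938 in mesoderm-2 (3915 to 5852.5). In the other mesoderm classes it was close to that of mesoderm-6. It spanned 1199.75 ranks in mesoderm-5, 1215.5 in mesoderm-4, 1262 in mesoderm-1 and 1300.25 in mesoderm-3. Mesoderm-6 cells ranked above mesoderm-2 cells in 46.1% of pairs, above mesoderm-1 cells in 42.1% and above mesoderm-4 cells in 22.5%. Against mesoderm-3 they were the higher cell in 75.4% of pairs, and against mesoderm-5 in 96.8%. Mesoderm-5, a direct neighbour in the embedding, was therefore the mesoderm class farthest from mesoderm-6 in level. Against the ectoderm classes, mesoderm-6 cells were the higher in at least 97.9% of pairs, a value found for nonneural ectoderm-1, and against the notochord in 95.9%.

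**Figure D2:**
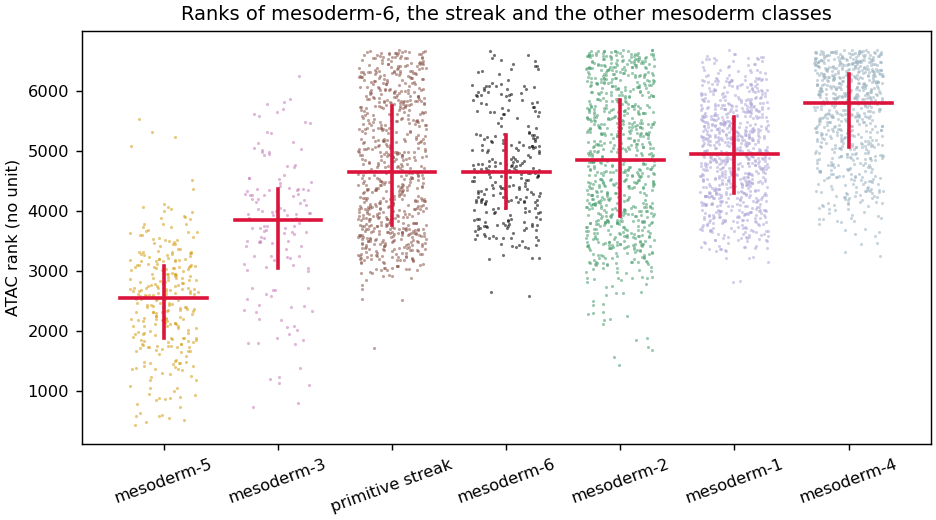
ATAC rank (no unit) of each cell in mesoderm-6, the primitive streak and the other mesoderm classes, with horizontal red lines at medians and vertical red lines over the quartile range. Mesoderm-6 and the streak have nearly the same median (4653.5 and 4654.5), and the quartile range of mesoderm-6 is the narrower of the 2.

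Within mesoderm-6 the rank fell along the first coordinate. Spearman's rho was -0.36 across the 268 cells. In 5 groups of 53 or 54 cells from the lowest to the highest first coordinate, the median rank was 5597, 4645.5, 4767, 4555.5 and 4057. The drop was not even. The group with the lowest coordinates stood well above the next, the 3 middle groups differed little, and the last was lower again. The quartile ranges of the first group (4679.5 to 6006) and the last (3744 to 4719) overlapped slightly.

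Along the second coordinate the rank showed no overall trend, with rho = 0.03, but it was not flat. The 5 groups from the lowest to the highest second coordinate had medians of 4363, 4413.5, 4800, 5079.5 and 4299. Both ends were low and the groups between were higher. The 4th group (quartiles 4641.25 and 5705) had the highest median and lower quartile, while the upper quartile of the 3rd was higher, at 5789. The last group (quartiles 3769 and 4838) overlapped with its range only at the edge.

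Because both coordinates rose together along the band, each hid a part of the relation of the rank to the other. Given the second coordinate, the partial rho with the first was -0.48, and given the first, the partial rho with the second was 0.35. The latter did not hold over the whole class. With the members divided into 3 parts by the first coordinate, rho with the second was 0.39 (90 cells) and 0.54 (89 cells) in the lower parts and -0.17 (89 cells) in the part with the highest first coordinates. A plane fitted to the ranks fell by 1246 ranks per unit of the first coordinate and rose by 683 ranks per unit of the second. It took up 26.1% of the rank variance, whereas the first coordinate alone accounted for 15.3% and the second alone for 0.0110%. A curved (quadratic) surface accounted for 34.1%. The fitted rank rose toward the upper left, at 151.3 degrees counted from rising first coordinate toward rising second. This direction stood at 99.1 degrees to the long axis of the band, close to a right angle.

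**Figure D3:**
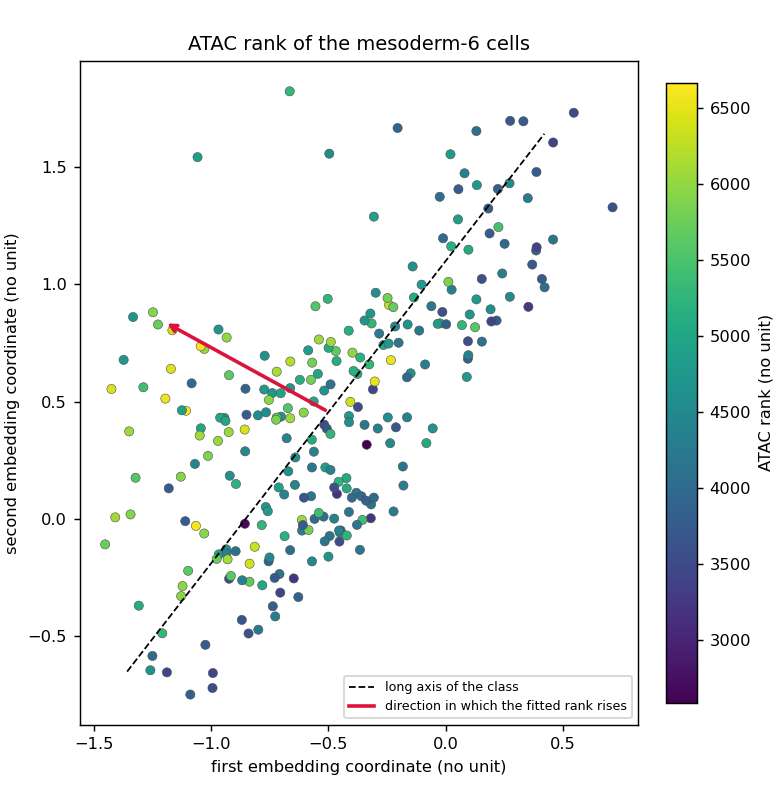
The 268 mesoderm-6 cells in the embedding (coordinates without a unit), coloured by ATAC rank, with the long axis of the class (dashed) and the direction in which the fitted plane rises (red arrow). High ranks lie on the upper left side and low ranks along the lower right edge and at the upper right tip, and the arrow stands at 99.1 degrees to the long axis.

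The rank thus ran across the band rather than along it. With the short axis, counted from the upper left edge to the lower right edge, rho was -0.51 across the 268 cells. The short axis alone accounted for 23.4% of the rank variance and the long axis alone for 2.71%. In 5 groups from the upper left edge to the lower right edge, the median rank fell at every step, from 5483 to 5049.5, 4632, 4318 and 4155. The quartile ranges of the first group (4752 to 6033.75) and the last (3757 to 4383) did not overlap. The last group was also the most uniform, with an SD of 493 against 717 to 837 in the other 4 groups.

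Along the long axis rho was -0.12. In 5 groups from the lower left to the upper right tip, the median rank was 4486, 4645.5, 4747, 4929.5 and 4108. The first 4 groups rose slightly, with widely overlapping quartile ranges (3823.75 to 5658.75 in the first, 4407.75 to 5489.5 in the 4th). The last group, at the tip that faces mesoderm-5, was lower, with quartiles of 3756 and 4782. The lower left tip held both high and low ranks, and its SD of 1014 was the largest of the 5 groups. At the upper right tip the SD was 641.

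The fall across the band was present over its whole length and was weaker toward mesoderm-5. With the long axis divided into 3 parts of 89 or 90 cells, rho with the short axis was -0.56 in the lower left part, -0.53 in the middle and -0.38 in the upper right part. In the lower left part, the median was 5735 on the upper left side (25 cells), 4770 in the middle (27 cells) and 4164.5 on the lower right side (38 cells). In the upper right part, the corresponding medians were 4766.5 (24 cells), 4632 (39 cells) and 4130.5 (26 cells). The lower right side therefore had nearly the same median in all 3 parts (4191 in the middle part, 25 cells). The upper left side declined from 5735 through 5101 (41 cells) to 4766.5. Along the upper left side, rho with the long axis was -0.32 across 90 cells, and along the lower right side it was 0.05 across 89 cells.

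**Figure D4:**
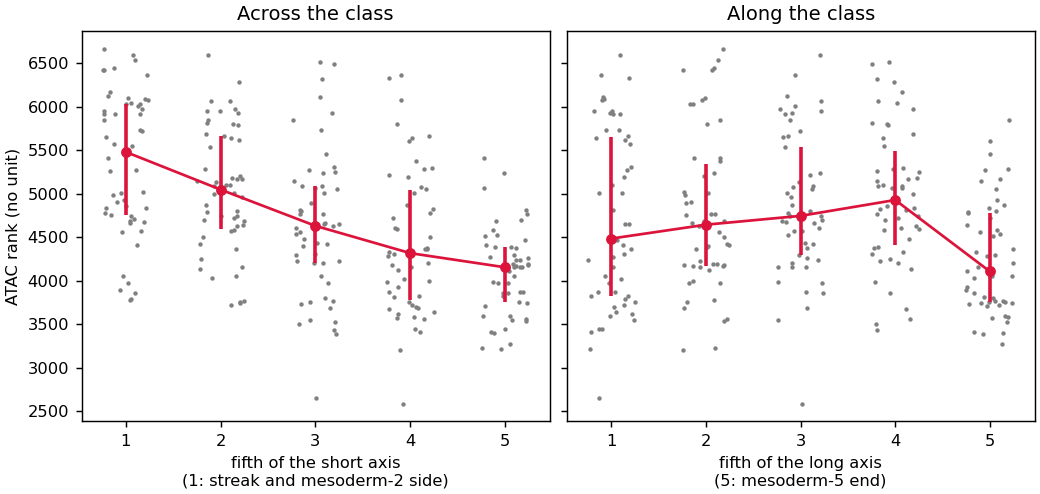
ATAC rank (no unit) of the mesoderm-6 cells in 5 groups of 53 or 54 cells across the short axis (left) and along the long axis (right), with grey points for cells, red points for medians and red bars for quartile ranges. Medians fall from 5483 to 4155 across the class, whereas along it they vary between 4486 and 4929.5 until the last group, at 4108.

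Neighbouring cells differed widely in rank even so. The rank of a member correlated with the median rank of its 15 nearest members with Spearman's rho = 0.52 across the 268 cells, which placed mesoderm-6 10th of the 13 ranked classes on this measure. It was 0.82 in mesoderm-5, 0.78 in the streak and 0.72 in mesoderm-2. The plane placed mesoderm-6 9th of 13, with 26.1% against 62.2%, 55.7% and 54.3% in those 3 neighbours. Of the other mesoderm classes, mesoderm-3 was higher on both measures (0.60 and 44.1%). Mesoderm-1 (0.35 and 5.01%) and mesoderm-4 (0.32 and 2.17%) were lower than mesoderm-6. The SD of the rank among 15 neighbouring members was 726 at the median, and it was 868 in the whole class. The 2 lowest members, at 2587 and 2653, lay inside the class, with all of their 15 nearest cells in mesoderm-6. Their 15 nearest members had median ranks of 4524 and 5009. Of these neighbours, none ranked below 3505 and 3867, respectively. The highest member, at 6667, lay on the upper left side, and its neighbours had a median of 5411.

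The direction of the gradient in mesoderm-6 stood between that of the streak and those of mesoderm-2 and mesoderm-5. The fitted rank rose at 84.3 degrees in the primitive streak, almost straight up the second coordinate, with rho = 0.76 for that coordinate across 710 cells. In mesoderm-2 it rose at 188.2 degrees and in mesoderm-5 at 192.5 degrees, that is toward lower first coordinates. The rho with the first coordinate was -0.71 in mesoderm-2 and -0.82 in mesoderm-5, and 0.06 in the streak. A negative rho with the first coordinate was found in all 6 mesoderm classes, the weakest in mesoderm-4 at -0.09, and in nonneural ectoderm-1 at -0.46. The classes closest to mesoderm-6 in direction were not these neighbours but mesoderm-3 (151.7 degrees) and mesoderm-1 (153.2 degrees), where the plane took up 44.1% and 5.01% of the rank variance. The difference between classes was not tested, since all cells come from 1 preparation.

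The border with the primitive streak held the most cells. Of the mesoderm-6 cells, 26 (9.70%) had at least 1 streak cell among their 15 nearest, and they were the border cells of this side. Of these, 17 lay in the group of 54 cells at the lower left tip, and 15 in the group of 54 at the upper left edge. Their median rank was 5493.5, against 4605.5 for the 242 members without a streak neighbour, a difference of 888. The quartile ranges overlapped (4146.5 to 5949 and 4056.25 to 5184.5). With at least 3 streak cells among the 15 as the criterion, the difference was 474 over 21 border cells.

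On the mesoderm-6 side, the streak border was divided at a second coordinate of 0 into an upper and a lower stretch. At a second coordinate of 0 or above, 14 border cells had a median of 5920.5 (quartiles 5452.25 and 6294.75), against 4640 for the 193 members of that area without a streak neighbour. Below 0, 12 border cells had a median of 4317 (quartiles 3680.5 and 5417.75), against 4361 for the 49 others there. In the lower stretch both medians were nearly equal, but its border cells were mixed. Those at second coordinates from -0.487 to -0.108 had ranks from 5102 to 5955. Those from -0.748 to -0.536 had ranks from 3441 to 4658. The former lay nearer the upper left edge, at short-axis positions of -0.406 to 0.018 against 0.044 to 0.330. Higher ranks beside the streak were thus seen in the upper stretch and on below 0. A difference between these sets apart from the fall across the band was not tested. The upper border cells lay farther left than the others of that area, at a median first coordinate of -1.30 against -0.37. Whether they differ in level from other cells at the upper left edge was not tested. The division at 0 was chosen after the values had been seen.

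Taken as a whole, the ranks on both sides of this border were at a similar level. The 35 streak cells with a mesoderm-6 cell among their 15 nearest had ranks with a median of 5651 and quartiles of 4804 and 5980.5. The border mesoderm-6 cells ranked above them in 47.1% of pairs. These streak cells stood above the 675 other streak cells, whose median was 4595. On the streak side the stretches differed less, with a median of 5794.5 over 16 cells in the upper and 5462 over 19 cells in the lower. The lower quartile of the lower stretch was 4239. In that stretch the 12 border mesoderm-6 cells stood lower, with a median of 4317, though their ranks were mixed and the quartile ranges overlapped. In the upper stretch the medians of both sides were close, with 5920.5 over 14 mesoderm-6 cells. When each border member was compared with its own streak neighbours, 10 ranked above their median and 16 below. The median difference was -234.5 (quartiles -572.25 and 354.875).

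At the border with mesoderm-5 the mesoderm-6 ranks were low. The border comprised 9 members, 3.36% of the class, all at the upper right tip. Their ranks ran from 3391 to 4543 with a median of 3744, against 4683 for the 259 others. The quartile ranges did not overlap (3600 to 4055 and 4147 to 5287). The whole group of 53 cells at that tip, which includes these 9, had a median of 4108. A difference in level from the other cells of the tip was not tested. On the other side, 14 mesoderm-5 cells had a median of 3284.5, from 2949 to 4521. They stood above the 270 other mesoderm-5 cells, with a median of 2490 (quartiles 1853.25 and 3029). The border thus joined low cells of mesoderm-6 to high cells of mesoderm-5. Border mesoderm-6 cells ranked above the facing mesoderm-5 cells in 73.0% of pairs, where 96.8% was found over the whole classes. Against their own mesoderm-5 neighbours, 5 ranked higher and 4 lower, with a median difference of 59 (quartiles -381 and 311).

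The border with mesoderm-2 had a less certain level. It comprised 17 members (6.34%), all in the group at the upper left edge of the band, and 8 of them also bordered the streak. Their median rank was 5411, with quartiles of 4715 and 6014. That of the 251 others was 4611, with quartiles of 4029 and 5211, which gave a difference of 800. The whole group of 54 cells at the upper left edge, which includes these 17, had a median of 5483. Whether the border cells differ in level from other cells of that edge was not tested. The difference of 800 also depended on which cells were counted. It was 204 with at least 3 mesoderm-2 cells among the 15 nearest (9 cells), 223 with 50 nearest cells (35 cells), 424.5 with 5 nearest cells (10 cells) and 1313 without 4 border members that lay outside the main body of the class. The facing 26 mesoderm-2 cells had a median of 4722 (quartiles 4225 and 5551), within the quartile range of the other mesoderm-2 cells (3887 to 5864). Border mesoderm-6 cells ranked above the facing cells in 65.4% of pairs, but against their own mesoderm-2 neighbours 6 ranked higher and 11 lower (median difference -269.5).

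**Figure D5:**
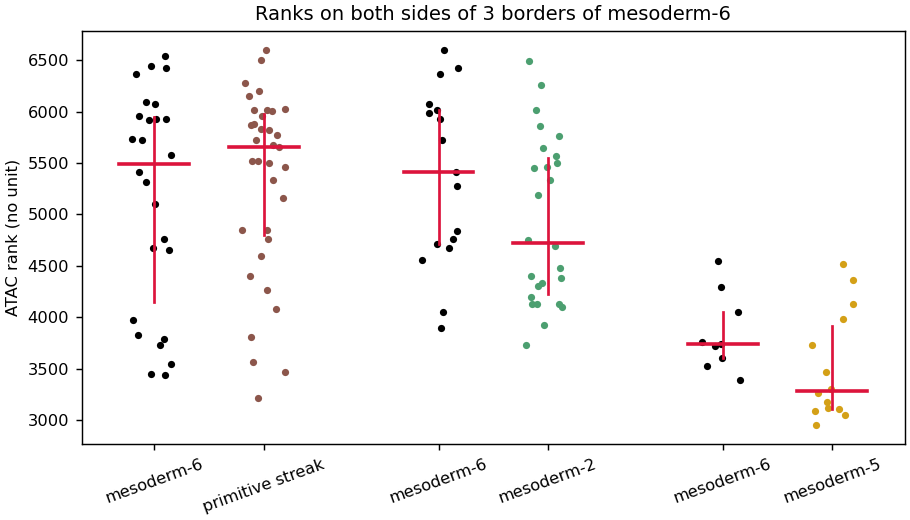
ATAC rank (no unit) of the cells on both sides of the borders with the primitive streak (26 and 35 cells), mesoderm-2 (17 and 26) and mesoderm-5 (9 and 14), with black points for mesoderm-6, coloured points for the facing class, horizontal red lines at medians and vertical red lines over quartile ranges. Taken as a whole, both sides are high at the streak (medians 5493.5 and 5651) and low at mesoderm-5 (3744 and 3284.5).

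Across all members, border cells included, rank fell with distance from the streak and from mesoderm-2. Distance is that to the nearest cell of the named class, in units of the embedding. In 5 groups from the nearest to the farthest from the streak, the median rank was 5493.5, 4719, 4767, 4503 and 4055, and rho was -0.35 across the 268 cells. The groups between the nearest and the farthest differed little. For distance from mesoderm-2 the medians were 4972.5, 5091.5, 4649, 4379 and 4156, with rho = -0.41, so the nearest group was not the highest. Whether these relations hold without the border cells, or apart from the fall of the rank across the band, was not tested. Distances from the streak and from mesoderm-2 were only weakly related to each other (rho = 0.24). Given either one, the partial rho of the rank with the other was -0.29 for the streak and -0.36 for mesoderm-2.

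Distance from mesoderm-5 had a weaker and uneven relation to rank, with rho = 0.14. The nearest group had a median of 4082.5, the next 3 had 4851, 4691 and 4727, and the farthest had 4508. The lower level beside mesoderm-5 thus showed in the nearest group, whose cells lay within 0.906 units of a mesoderm-5 cell (quartiles 3747 and 4787.25). The farthest group was widely spread, with quartiles of 3822 and 5735. Cells far from mesoderm-5 were close to the streak (rho = -0.88 between both distances), so these relations overlap. The sign of the relation with mesoderm-5 turned with what was held fixed. Given the distance from the streak, its partial rho was -0.37, and given the distance from mesoderm-2 it was 0.24.

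A few members lay beside single cells of other classes. The 9 members with a mesoderm-3 neighbour shared 4 mesoderm-3 cells between them, and their median rank was 5924. A single nonneural ectoderm-1 cell with a rank of 1268 lay among the upper left cells of the band and was a near neighbour of 6 members. Those 6 members had ranks from 4677 to 6598, so the cell stood far below its surroundings in the embedding.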

How the data were processed

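The table used lists the cells of 1 preparation, with columns for UMAP coordinates, a class name and an ATAC rank, per the file headers. The rank is given for 6681 of the 7750 cells. The authors deposited the coordinates and the rank as scores without a unit. The submitters' processing notes name Signac 1.8.0, Seurat 4.3.0, the build galGal6 and Cell Ranger ARC 2.0.0. The sources used here do not give filters, doublet treatment, class naming or the making of the rank. No doublet caller was run. Depth per cell is unknown.

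Members were the cells named mesoderm-6. Medians, quartiles, correlations, least squares surfaces and the 15 nearest cells (Euclidean distance) were computed; axes are principal axes of the members' coordinates. Cells outside the main body were those whose 5th nearest member was farther than 3 times the class median. Alternatives were other numbers of nearest cells (5 and 50), a stricter border, means, Pearson and partial correlations, normal scores and the removal of outlying or mixed cells. Functions were checked on simulated data. The members, borders and summaries were chosen with earlier results of these data known, and the principal axes and the streak division after the values were seen. No gene was named, since the rule needed gene values. Intervals cover counting of cells only. Software was scikit-learn 1.9.0, SciPy 1.17.1 and pandas 2.3.3 under Python 3.11.15.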

Additional observations from a re-analysis of the deposited data

How the results depend on the processing

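Of 42 alternative values, 40 stayed within the limits set for them. These limits were the 95% interval of the median, 0.1 for a correlation and 10 percentage points for a share of variance. Percents of pairs had the binomial interval of a share of 268 cells. Pairs have cells in common, so that interval is only a rough guide. The 2 that moved were the partial correlations of the rank given the other coordinate, -0.48 for the first (-0.36 as reported) and 0.35 for the second (0.03). None changed sign. The limits for border differences are wide, because few cells are on a border: the streak difference of 888 ranged from 474 to 1001, that for mesoderm-2 of 800 from 204 to 1313, and that for mesoderm-5 of -939 from -1069 to -888. Among the 225 cells with all 15 nearest cells in the class, a choice made after the values were seen, rho was -0.27 with the first coordinate, -0.47 with the short axis and -0.04 with the long axis. The plane accounted for 25.2 to 27.4% of the variance on normal scores or without 8 outlying cells. No paired analysis was possible because there were no groups of samples to compare. Depth per cell was not analysed here, so its part in the rank was not tested.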
